A study of Mus musculus with 6 samples.

Results

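Levels of 5 genes of the hypoxia-inducible factor (HIF) system were followed: the oxygen-regulated alpha subunits Epas1 (HIF-2alpha) and Hif1a (HIF-1alpha), their common partner Arnt (HIF-1beta), the oxygen sensor Egln1 (PHD2) and the ubiquitin ligase subunit Vhl. They were chosen by name, and all 5 were among the 10989 genes of the deposited table, with the table's minimum met in both fractions. RNA was sequenced from mouse brains of the genotype Tie2-cre+; NuTRAP+, which all 6 libraries share and their titles also read WT. Here the promoter of Tie2 (Tek), an endothelial gene, drives the Cre that switches on NuTRAP, a reporter that puts EGFP on ribosomes and mCherry on the nucleus. Tie2-driven Cre is also known to act in some cells of the blood lineage. The 3 Input libraries came from the dissociated brain cells, and the 3 Positive libraries from cells of that suspension sorted as EGFP-positive, CD31-positive and CD11b-negative. Replicate numbers 1222, 1223 and 1227 occur in both fractions. Age and sex were not given in the sources used here. Nothing in the labels ties a number to an animal, although the series calls the replicates biological, so p-values measure the spread between these libraries.

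HIF is a pair of proteins, 1 alpha and 1 beta subunit, that binds DNA and switches on genes for oxygen delivery and for energy supply without oxygen. When oxygen is plentiful, EGLN prolyl hydroxylases mark the alpha subunit, VHL recognises the mark, and the alpha subunit is ubiquitinated and destroyed. This control acts on the protein, so RNA levels of the alpha genes do not report HIF activity. HIF-2alpha was named endothelial PAS domain protein for its abundance in vessels, and HIF-1alpha occurs in most cell types.

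HIF binds the core letters ACGTG, and also GCGTG, and these were searched on both strands in the 250 bases before each RefSeq transcription start (mouse build GRCm38.p6). Windows were at hand for 4 of the members, and Epas1 had none. The stretches below, 5′ to 3′ on the gene's strand with the core in capitals, show where the letters occur.
Egln1, chr8:124949306-124949334, minus strand: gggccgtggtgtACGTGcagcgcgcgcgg
Egln1, chr8:124949364-124949392, minus strand: gcccggcccgccGCGTGcgcgcggccccc
Hif1a, chr12:73907721-73907749, plus strand: acacagacaagcACGTGagcggggcagct
Hif1a, chr12:73907785-73907813, plus strand: tggctgagagcaACGTGggctggggtggg
Arnt, chr3:95434349-95434377, plus strand: ccatagtttgggGCGTGtcttctgcccag
Egln1, itself known as a gene that HIF induces, held both cores. In Egln1 ACGTG began 68 bases before the start, inside an exon of the longer gene model in GENCODE M21, and GCGTG began 126 bases before it, upstream of that model. Hif1a held ACGTG at 134 and 70 bases before the start, both within an intron of a longer Hif1a model. The first of these Hif1a sites is a palindrome with its preceding base and therefore also matches on the opposite strand, so 3 matches were counted. Arnt held 1 GCGTG, 29 bases before the start, and the Vhl window held neither core. These letters are common: ACGTG was in 21.3% and GCGTG in 44.2% of the 11413 windows of tested genes. A match is a description of the letters and not a measured binding site.

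The comparison of Positive with Input gives the level of each transcript in sorted endothelial cells relative to the mixed suspension, which also contains endothelial cells. Epas1 rose about 5-fold and Arnt about 2.2-fold, Vhl fell to about 0.51 of its Input level, and Hif1a and Egln1 did not pass the test. The test was edgeR's quasi-likelihood test with Benjamini-Hochberg adjustment over all 10989 genes and a threshold of 0.05. It did not pair libraries by replicate number, and with that number as a block Egln1 passed (edgeR, adjusted p = 0.044). By the unpaired test 55.5% of all tested genes were called, 26.1% higher and 29.4% lower in Positive. The members' count of 3 called of 5, 2 higher and 1 lower, is near that background. Levels are CPM, the estimated counts divided by the library's TMM-scaled total, on the usual counts-per-million scale. In bulk RNA a change in how many cells of a type are present and a change in RNA per cell cannot be told apart.

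**Figure D1:**
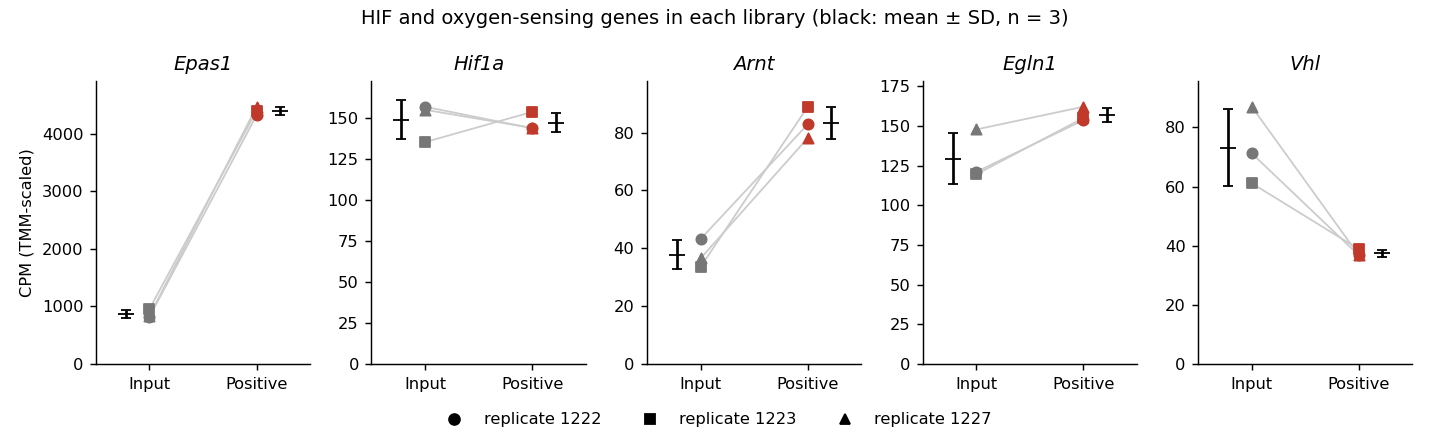
Levels of the 5 genes in each library, in CPM on the vertical axis of each panel, for Input (grey) and Positive (red). Symbols mark the replicate number, grey lines join libraries of 1 number, and black marks give the mean ± SD of 3 libraries. All 3 Positive libraries lie above Input for Epas1, Arnt and Egln1 and below Input for Vhl, and the fractions overlap for Hif1a. Of all tested genes, 31.8% lay above Input in this way and 32.6% below.

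Epas1 (chromosome 17, 86753864 to 86833410, mm10) stood at 820.1, 954 and 836 CPM in Input replicates 1222, 1223 and 1227. In Positive it stood at 4320.5, 4399.7 and 4468 CPM, in that order. The fractions are far apart, and the 3 Positive libraries lie close together. The Input mean was 870.02 ± 73.4 CPM and the Positive mean 4396 ± 73.9 CPM (SD, n = 3). On the log2 scale Epas1 rose by 2.34 ± 0.14 (SE; 95% interval 2.02 to 2.66; edgeR, adjusted p = 4.23e-06). Of the 10989 genes, Epas1 ranked 324 by fold change.

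Hif1a (chromosome 12, 73907867 to 73947530) stood at 157, 135 and 155 CPM in Input and at 143, 153 and 144 CPM in Positive, in the same order of replicates. The fractions overlap, with the lowest value in Input 1223. The log2 fold change was -0.02 ± 0.12 (edgeR, adjusted p = 0.894), and its 95% interval of -0.30 to 0.25 leaves out a change as large as that of Epas1 or Arnt. Strand use in counting is not given in the sources used here, and 330 of the 5896 exon bases of Hif1a in GENCODE M21 also lie in exons of the antisense gene Gm15283. A further 148 are shared with a same-strand gene, Gm49321.

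Arnt (chromosome 3, 95434390 to 95497239), which pairs with either alpha subunit, stood at 43.2, 33.6 and 36.5 CPM in Input and at 82.8, 88.9 and 78.1 CPM in Positive. All Positive libraries lie above all Input libraries, an order that held for 31.8% of all tested genes. The log2 fold change was 1.13 ± 0.15 (95% interval 0.80 to 1.47; edgeR, adjusted p = 0.000214). With 168 reads in Input 1223, Arnt had the fewest counts of the 5 genes in any library.

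Arnt2, a paralog of Arnt that is known from neurons, can serve as a beta subunit as well. It stood at 185, 154 and 209.5 CPM in Input and at 14.5, 13.3 and 13.7 CPM in Positive, and it fell by 3.72 ± 0.16 on the log2 scale (edgeR, adjusted p = 2.7e-06). Arnt and Arnt2 thus moved in opposite directions. Hif3a, the third alpha gene, was low and uneven, at 6.87, 15.8 and 3.55 CPM in Input and 5.25, 22.8 and 4.08 CPM in Positive. The higher values of Hif3a were in the libraries of 1223, the least deep in each fraction. Hif3a did not pass the test (log2 0.29 ± 0.76), and without Positive 1223 its value was -0.81. It was named after its values were seen. Of the 5 subunit genes, then, 2 rose, 1 fell and 2 did not pass, and their median log2 fold change was 0.29 beside 0.03 over all tested genes.

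Levels of different genes were compared per kilobase of exon, with exon lengths of all transcripts of a gene from GENCODE M21. On that scale the order in Positive was Epas1 (786 ± 13.2 CPM per kb, SD, n = 3), Hif1a (24.9 ± 0.96), Arnt (10.4 ± 0.68), Arnt2 (1.80 ± 0.08) and Hif3a (1.60 ± 1.57). The last 2 of these do not differ beyond their spread. In Input the order was Epas1 (156 ± 13.1 CPM per kb), Hif1a (25.2 ± 2.02), Arnt2 (23.8 ± 3.65), Arnt (4.72 ± 0.62) and Hif3a (1.30 ± 0.94), and Hif1a and Arnt2 lie within their spread of each other. By level per kb, Epas1 ranked 25 in Positive and 210 in Input among the 10733 genes with a length, whereas Hif1a ranked 2095 and 1992.

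Epas1 made up 96.7% ± 0.30 of the summed level per kb of the 3 alpha genes in Positive and 85.4% ± 1.55 in Input. Of the summed level of both beta genes, Arnt made up 85.2% ± 1.11 in Positive and 16.7% ± 2.07 in Input. Within each library, the alpha sum was 65.3, 63.6 and 71.5 times the beta sum in Positive 1222, 1223 and 1227, and 5.91, 8.11 and 5.54 times in Input. The main alpha gene was thus Epas1 in both fractions, while the main beta gene was Arnt2 in Input and Arnt in Positive. The excess of alpha over beta RNA was larger in every Positive library than in any Input library. Exon lengths that count all transcripts can misstate the level of a gene that uses few of them.

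**Figure D2:**
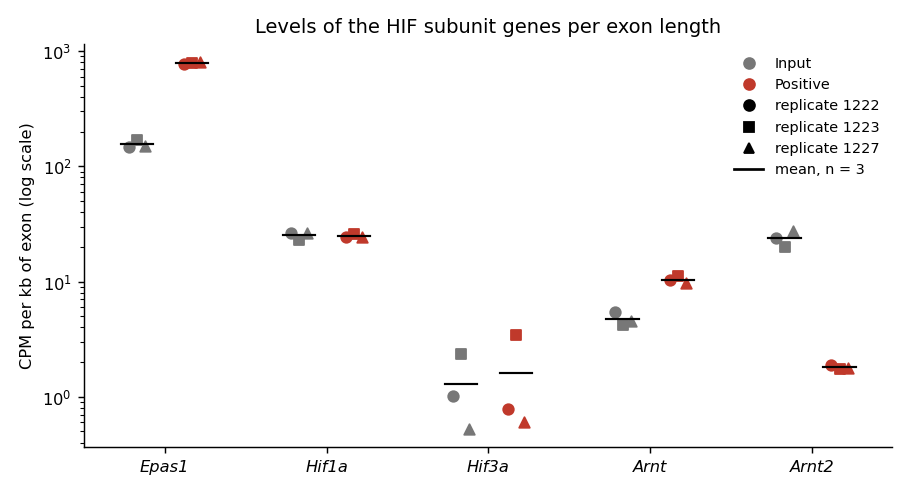
CPM per kb of exon (log axis) of the 3 alpha and 2 beta HIF subunit genes, for Input (grey) and Positive (red), with 1 symbol per replicate number and a line at the mean of 3 libraries. Epas1 is the highest gene in both fractions, and Arnt and Arnt2 exchange places between Input and Positive.

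Ratios of members within a library do not depend on how libraries are scaled to each other. The ratio of Epas1 to Hif1a counts was 5.24, 7.06 and 5.40 in Input 1222, 1223 and 1227 and 30.1, 28.7 and 31.1 in Positive, a log2 difference of 2.36. The ratio of Hif1a to Arnt counts was 3.62, 4.03 and 4.24 in Input and 1.73, 1.72 and 1.84 in Positive, a log2 difference of -1.16. Thus Epas1 gained on Hif1a and Hif1a lost ground to Arnt in all 3 replicate numbers. Epas1 also gained on Arnt, with a log2 difference of 1.19 that ranged from 0.80 in 1223 to 1.46 in 1222. For the sensor and the ligase, the ratio of Egln1 to Vhl was 1.70, 1.95 and 1.70 in Input and 4.18, 3.99 and 4.41 in Positive, a log2 difference of 1.24. In these 4 ratios the fractions did not overlap, and the exact two-sided permutation test gave p = 0.10 for each (0.10 after adjustment over the 4), the smallest p that 3 against 3 libraries allow. Of all tested single genes, 31.8% did not overlap with Positive above and 32.6% with Positive below. The share among other gene pairs was not computed, so the lack of overlap is not read as particular to these ratios.

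Egln1 (chromosome 8, 124908587 to 124949254), the main prolyl hydroxylase that marks HIF alpha for VHL, stood at 121, 119 and 148 CPM in Input and at 154, 155 and 162 CPM in Positive. All Positive libraries lie above all Input libraries, by a small margin over Input 1227. The same order, Positive above Input with no overlap, held for 31.8% of all tested genes. The log2 fold change of 0.28 ± 0.13 did not pass (95% interval -0.02 to 0.57; edgeR, adjusted p = 0.103). With the replicate number as a block Egln1 passed, at log2 0.28 and adjusted p = 0.044. Its log2 fold change was 0.12 without scaling beyond library size and 0.14 with a minimum of 50 counts in every library, and it passed in neither.

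Of the other oxygen-sensing hydroxylases, Egln2 and Hif1an rose, P4htm fell and Egln3 was not analysed here. Egln2 (PHD1), a second prolyl hydroxylase, went from 60.5 ± 3.97 to 87.8 ± 8.50 CPM (SD, n = 3; log2 0.53 ± 0.13). Hif1an (FIH), which hydroxylates an asparagine of HIF alpha and so blocks its coactivators, stood at 41.7, 28.4 and 35.8 CPM in Input and 57.6, 55.7 and 61.95 CPM in Positive (log2 0.72 ± 0.17; edgeR, adjusted p = 0.00629). P4htm, a prolyl hydroxylase of the endoplasmic reticulum, fell by 2.44 ± 0.34 on the log2 scale. P4htm met the table's minimum in Input alone, which favours a fall. Per kb, Egln1 was the highest of the hydroxylase genes in both fractions, at 36.0 ± 4.43 CPM per kb in Input and 43.7 ± 1.26 in Positive, against 21.6 ± 1.42 and 31.4 ± 3.04 for Egln2. Without both libraries of 1227 neither rise passed (Egln2 log2 0.55, adjusted p = 0.088; Hif1an log2 0.68, adjusted p = 0.081).

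Vhl (chromosome 6, 113624021 to 113631633), which recognises hydroxylated HIF alpha, stood at 71.2, 61.1 and 87.0 CPM in Input and at 36.7, 38.8 and 36.7 CPM in Positive. All Positive libraries lie below all Input libraries, an order that held for 32.6% of all tested genes. Vhl fell by 0.97 ± 0.16 on the log2 scale (95% interval -1.34 to -0.61; edgeR, adjusted p = 0.00092). Input varied more than Positive, with SDs of 13.04 and 1.19 CPM.

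Vhl acts inside a complex with elongins B and C, the scaffold Cul2 and the RING protein Rbx1, and of these 5 genes it was the 1 that fell. Tceb2 (elongin B) had log2 0.02 ± 0.16, Rbx1 0.02 ± 0.14 and Cul2 0.23 ± 0.18, and the direction of Tceb2 and Rbx1 turned without scaling beyond library size (-0.13 and -0.14). Tceb1 (elongin C), named after its values were seen, did not pass (log2 -0.33 ± 0.15) but was called lower without scaling and with a minimum of 50 counts in every library, so that 2 of the 5 fell. The median log2 fold change of the 5 was 0.02, close to that of all genes.

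Among 11 tested genes of other proteins that act on HIF stability, 3 rose, 2 fell and 6 did not pass (median log2 0.11). Both cytosolic HSP90 genes, chaperones that bind HIF-1alpha, changed and did so in opposite directions. Hsp90aa1 stood at 790.2, 1048 and 862 CPM in Input and 301, 259 and 252 CPM in Positive (log2 -1.73 ± 0.16), and Hsp90ab1 went from 1562 ± 79.6 to 2259 ± 51.5 CPM (log2 0.53 ± 0.13). The other rises were Senp1, a SUMO protease (log2 0.85 ± 0.20), and Siah1a, a ubiquitin ligase that targets prolyl hydroxylases (0.75 ± 0.18). The other fall was Usp20, a deubiquitinase (-1.37 ± 0.21). Gnb2l1 (RACK1), a competitor of HSP90 on HIF-1alpha, had log2 0.36 ± 0.16 and Os9 had -0.28 ± 0.13, and neither passed. Both passed with the replicate block (adjusted p = 0.0105 and 0.048), Gnb2l1 also by limma (0.43) and without Input 1223 (0.45), and Os9 also without scaling (-0.43) and with the minimum of 50 counts (-0.42). Senp1 and Siah1a were named after their values were seen. The 3 rises became 5 without Input 1223, 1 without both libraries of 1222, 0 without both of 1227 and 5 with the replicate block.

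Of 5 tested coactivators and competitors of HIF, Crebbp (CBP), a histone acetyltransferase, was called higher (log2 0.84 ± 0.28; edgeR, adjusted p = 0.032), although its libraries overlap. It was named after its values were seen. Its paralog Ep300 (p300) had log2 0.49 ± 0.20 and did not pass, while Ncoa1 and Ncoa2 had 0.13 ± 0.18 and -0.16 ± 0.18. Cited2, which competes with HIF for p300 and CBP, was uneven in Positive, at 173, 56.5 and 35.9 CPM in 1222, 1223 and 1227 against 144, 156 and 76.8 CPM in Input. Without Positive 1222 Cited2 was called lower (log2 -1.46, adjusted p = 0.0058), as it was without both libraries of 1222 (-1.36). In that library the summed level of perivascular macrophage markers was also highest, at 1945 CPM against 704 and 279 CPM in the other Positive libraries; their part in the Cited2 value was not tested. Crebbp did not pass without Input 1223 (log2 0.69), Input 1227 (0.73), Positive 1222 (0.64) or Positive 1223 (0.84), without both libraries of 1223 (0.69) or of 1227 (0.91), without scaling beyond library size (0.67) or with the minimum of 50 counts (0.70). With the replicate block both Crebbp and Ep300 (0.50) rose, and Ep300 also passed by limma (0.58), without Input 1222 (0.70) and without both libraries of 1222 (0.55).

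**Figure D3:**
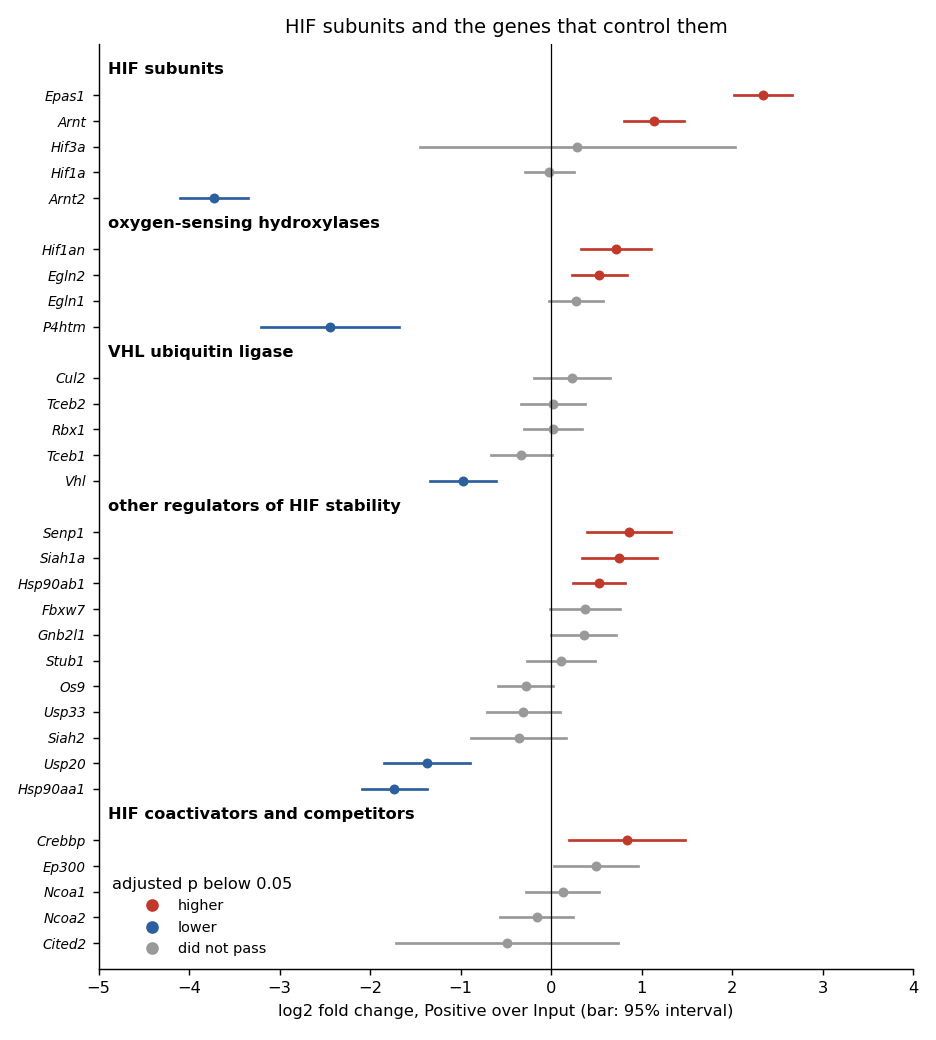
Log2 fold changes of Positive over Input (points) with 95% intervals (bars) for 30 genes of 5 lists, coloured by whether they were higher or lower at adjusted p below 0.05. Epas1 at 2.34 and Arnt2 at -3.72 are the extremes, and of the ligase and coactivator lists only Vhl (lower) and Crebbp (higher) were called.

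Arnt belongs to the bHLH-PAS family, and 4 of 11 listed relatives were tested. Ahr, the dioxin receptor, which also pairs with Arnt, rose from 5.98 ± 1.08 to 19.1 ± 3.60 CPM (log2 1.69 ± 0.27). Arntl (BMAL1), the clock factor, rose by log2 1.32 ± 0.19, while its partner Clock had 0.54 ± 0.21 and did not pass. Clock passed with the replicate block (0.56, adjusted p = 0.00906), by DESeq2 (0.54) and limma (0.62), without Input 1222 (0.76) and without both libraries of 1222 (0.59). Npas3, a neural family member, fell by 2.25 ± 0.59 on the log2 scale, and did not pass without both libraries of 1227 (-1.67). Ahr met the table's minimum in Positive alone, which favours a rise.

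Other enzymes need oxygen as a substrate, and 13 of them were tested beside the HIF hydroxylases: 3 histone demethylases rose, 1 gene fell and 9 did not pass (median log2 0.33). The fall was Ado, a thiol dioxygenase that senses oxygen through the N-terminus of its protein targets. Ado stood at 143, 234 and 182 CPM in Input and 37.4, 36.1 and 47.5 CPM in Positive (log2 -2.20 ± 0.21; edgeR, adjusted p = 3.78e-05). The rises, named after their values were seen, were Kdm4c (log2 0.81 ± 0.17), Kdm5b (0.57 ± 0.16) and Kdm6a (0.45 ± 0.16), while the more abundant Kdm5c, Kdm4a and Kdm5a had log2 0.33 ± 0.17, -0.00 ± 0.12 and 0.29 ± 0.22. The 3 rises became 5 without Input 1222, 1 without both libraries of 1223, 1 without both of 1227 and 1 without scaling. Kdm6a did not pass when any library other than Input 1222 was left out (log2 0.38 to 0.52).

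Genes known as HIF targets did not move as 1 group. All 12 of a vascular set changed, 11 up and 1 down (median log2 2.83). Many of these genes, such as Flt1, Kdr and Cdh5, are endothelial genes whether or not HIF acts on them, and Kdr and Cdh5 are also in the endothelial marker list. Flt1, Cxcl12, Kdr and Cdh5, the most abundant, had log2 fold changes of 3.00 ± 0.16, 3.15 ± 0.14, 3.20 ± 0.16 and 2.84 ± 0.18. Cxcr4, the chemokine receptor, was the fall (-0.99 ± 0.20).

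Of 18 tested glycolytic targets, 13 fell, 3 rose and 2 did not pass, with a median log2 fold change of -0.92. Of the 13 falls, 3 (Hk2, Pfkfb4 and Slc16a3) met the table's minimum in Input alone, which favours a fall. Slc2a1, the glucose transporter of the blood-brain barrier, rose by log2 2.36 ± 0.18, about as much as Epas1. Ldha, which makes lactate, rose by 0.90 ± 0.14 and Pfkl, a phosphofructokinase, by 0.65 ± 0.13, whereas Pfkp, another phosphofructokinase, fell by 1.08 ± 0.16 and Slc16a3, a lactate exporter, by 2.19 ± 0.24. Pfkp and Slc16a3 were named after their values were seen. Aldoc fell by 3.54 ± 0.26, Gapdh by 1.17 ± 0.15 and Aldoa by 0.53 ± 0.15 on the log2 scale. Aldoc is also an astrocyte marker, and the summed level of the 7 astrocyte markers fell from between 5282 and 8308 CPM in Input to between 531 and 826 CPM in Positive; their part in the other falls was not tested. Aldoa did not pass by limma (-0.46) or without Input 1227 (-0.46), Positive 1222 (-0.48) or Positive 1223 (-0.47). Nor did it pass without both libraries of 1222 (-0.55), of 1223 (-0.49) or of 1227 (-0.57).

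Of 21 other hypoxia-induced targets tested, 4 rose, 4 fell and 13 did not pass (median log2 0.05). Adm, the vasodilator peptide adrenomedullin, stood at 2.78, 1.80 and 2.45 CPM in Input and 13.5, 17.3 and 13.7 CPM in Positive (log2 2.60 ± 0.31). Tfrc, the transferrin receptor that carries iron across the barrier, rose by log2 1.73 ± 0.24. Vegfa, the growth factor that HIF induces in oxygen-poor tissue, stood at 86.6, 60.7 and 69.3 CPM in Input and 5.83, 8.43 and 4.92 CPM in Positive (log2 -3.57 ± 0.24). Adm and Vegfa, both held as textbook HIF targets, thus moved in opposite directions. Adm met the minimum in Positive alone and Vegfa in Input alone, which favours the direction each took, and 6 of the 21 were kept through 1 fraction.

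The other rises were Ero1l, an oxidase of the endoplasmic reticulum (log2 0.66 ± 0.20), and P4ha2 (0.79 ± 0.26). The other falls were Vldlr, a lipoprotein receptor (-3.80 ± 0.18), Car12, a carbonic anhydrase (-3.31 ± 0.27), and P4ha1 (-1.44 ± 0.17). Vldlr and Car12 met the table's minimum in Input alone and P4ha2 in Positive alone, which favours the direction each took. P4ha1 and P4ha2, both collagen prolyl hydroxylase genes, moved in opposite directions. Of the 4 most abundant targets of this list Tfrc rose, while Ndrg1 (0.37 ± 0.16), Bnip3l (0.33 ± 0.13) and Plod1 (0.26 ± 0.13) did not pass. These 3 passed with the replicate block, where 7 of the 21 rose, and Ndrg1 (0.50) and Bnip3l (0.42) also without Input 1223. Apart from Tfrc, the genes of this list that rose or fell were named after their values were seen. Without Positive 1222, Positive 1227, both libraries of 1222 or both of 1227, 2 of the 21 rose, and without scaling also 2.

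**Figure D4:**
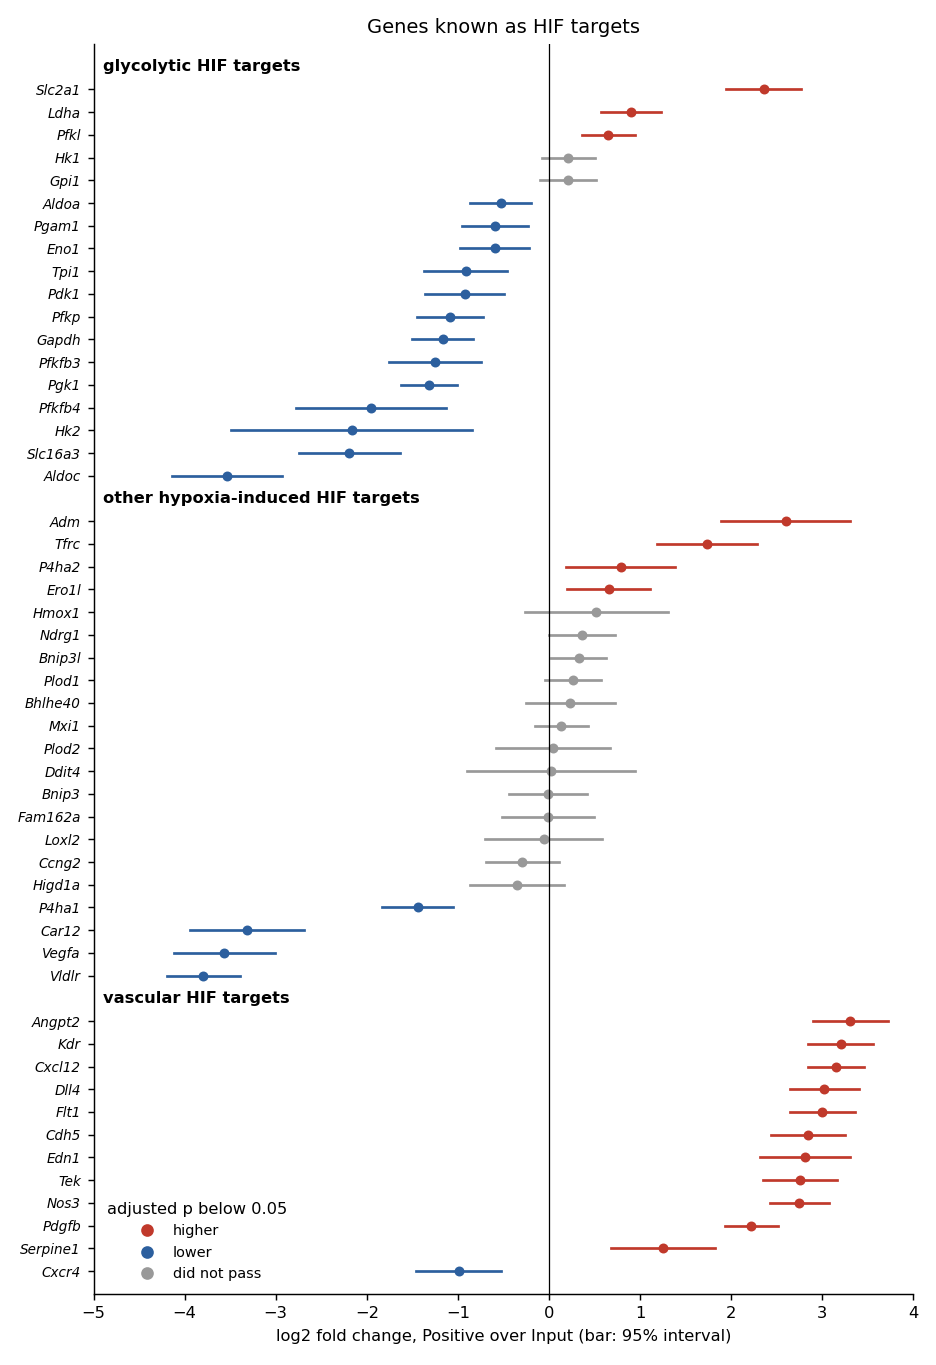
Log2 fold changes of Positive over Input (points) with 95% intervals (bars) for 51 tested genes known as HIF targets, in 3 lists and coloured by call. Vascular targets lie to the right with a median of 2.83, most glycolytic targets to the left with a median of -0.92, and the other targets spread to both sides.

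For each member, the genes with the most similar profile over the 6 libraries were found by the root mean square (RMS) difference of log2 CPM around each gene's own mean, among 5417 genes above the median level. Epas1 was closest to Cav2, a caveolin (RMS 0.032), Efna1, an ephrin (0.042), and Gjc1, a connexin (0.055). Hif1a was closest to Gtf2f1 (0.040), Capza2 (0.046) and Map2k7 (0.046), none of which passed the test. Arnt was closest to Shoc2 (0.030), Cdk17 (0.065) and Yes1 (0.067). Egln1 was closest to Plod1 (0.042), Rab1b (0.042) and Tomm40l (0.048). Vhl was closest to Adk (0.070), Mt1 (0.071) and Abhd4 (0.077). With 2 fractions these profiles are set mostly by the difference between Positive and Input, so near genes share its size.

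The fractions differed in the levels of cell type markers. All 8 endothelial markers, Pecam1 and Cldn5 among them, rose (summed level 1613 to 2333 CPM in Input and 12513 to 14735 CPM in Positive). All 7 microglial, 7 astrocyte, 5 oligodendrocyte and 4 tested neuronal markers fell, and in Positive their sums were 1240 to 2340, 531 to 826, 555 to 1205 and 18.8 to 22.3 CPM. Pecam1 encodes CD31, and the microglial marker Itgam encodes CD11b. The sort selected on both proteins, so the directions of these genes are no independent sign of cell content. The 4 neuronal markers and the astrocyte marker Gfap met the table's minimum in Input alone, which favours a fall. All 6 pericyte and 5 of 6 perivascular macrophage markers rose, the latter with sums of 279 to 1945 CPM in Positive and 227 to 304 CPM in Input. The fractions overlapped for all 6 macrophage markers, and in 1227 their sum was 279 CPM in Positive against 227 CPM in Input. The pericyte sums were 1125 to 1793 CPM in Positive and 579.5 to 698 CPM in Input. The macrophage marker Ms4a7 and the pericyte marker Higd1b met the table's minimum in Positive alone, which favours a rise. The part of macrophage and pericyte RNA in the rises of Epas1 and Arnt, and of non-endothelial RNA in Input in the falls of Vhl and Arnt2, was not tested. No tested marker was at 0 in any library. Summed estimated counts ran from 4772866 (Positive 1223) to 52283556 (Input 1227), and the libraries of 1223 were the least deep in both fractions.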

How the data were processed

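Total RNA was sequenced with a directional kit in 3 Input and 3 Positive libraries, per the labels' protocols. The deposited table gives estimated counts per gene, which need not be whole, and normalised values on the log2 scale, used only as an alternative. Genes needed 50 or more in every library of at least 1 fraction, per the file headers. The build was mm10 and tool names include DESeq, per the submitters' processing notes; the aligner, the counter and whether it used strand were not given in the sources used here.

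Estimated counts were rounded and fitted over all genes with edgeR 4.0.16 in R 4.3.3 (TMM, filterByExpr with a minimum count of 10, which removed 0 genes, quasi-likelihood test, fraction as the only term), after the code was tested on simulated data. The biological coefficient of variation was 21.6%. Deviations of same-numbered libraries from their fraction means correlated at 0.47, 0.24 and 0.30 (1222, 1223, 1227), so the numbers were taken to pair the libraries, from the data and not from a label. The main fit and the permutation test of ratios did not use this pairing, and the replicate block did. The alternatives were a replicate block, other scalings and filters, DESeq2 1.42.0, limma 3.58.1 and left-out libraries. Ratios used a pseudocount of 0.5.

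Members and lists were chosen with earlier results of these data known. Named genes are the 5 members, the 4 most abundant tested genes of each pathway list (not all are printed), genes called against a list's main direction and the 3 nearest profiles per member. Promoters are from RefSeq (GRCm38.p6).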

Additional observations from a re-analysis of the deposited data

How the results depend on the processing

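Epas1, Arnt and Vhl kept their direction and their call in all 16 alternatives. Egln1 kept its direction and passed only with the replicate block (log2 0.28, adjusted p = 0.044). It was smaller without scaling beyond library size (0.12) and with the minimum of 50 counts (0.14). The block changed no call of the other 4 members, and with it 40 genes of the pathway lists were higher and 26 lower, against 31 and 25. Hif1a, which passed in none, turned to log2 0.056 by limma on the deposited log2 values. It stood at -0.18 without scaling beyond library size and at -0.16 with the minimum of 50 counts. With 1 library or 1 replicate number left out, Hif1a ranged from -0.12 to 0.025, genes higher in Positive from 1741 (without both libraries of 1227) to 2755, and genes lower from 2393 to 3207. Requiring 50 counts in every library left 8530 genes to test, of which 2066 were lower, against 3227 of 10989 in the main fit. Without scaling beyond library size the median of all genes moved from 0.03 to -0.13, and Tceb2 (-0.13), Rbx1 (-0.14) and Ncoa1 (-0.031) turned; with the minimum of 50 they stood at -0.12, -0.12 and -0.0094, and limma gave Kdm4a 0.071. Left-out libraries turned Hif3a (-0.81 to 0.96), Tceb2 (-0.12 to 0.10), Rbx1 (-0.065 to 0.11), Ncoa1 (-0.012 to 0.29) and Kdm4a (-0.052 to 0.046); none of these was called, and the cause was not tested. The setting without a filter changed nothing, since the table was already filtered. The 4 ratios kept their direction in every alternative. The libraries of 1223, with the fewest counts, held 168 reads of Arnt in Input and 175 of Vhl in Positive, which limits their precision.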
